A study of Heterocephalus glaber and Mus musculus with 6 samples.

Results

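Kcnq1ot1 and 8 other noncoding RNAs of imprinted loci were followed in mouse epidermal keratinocytes. The 9 genes were chosen by their GENCODE vM21 symbols with earlier results of these data known: Kcnq1ot1, H19, Meg3, Airn, Peg13, Rian, Mirg, Snhg14 and Nespas. Of these, 7 had a row under their own Ensembl identifier among the 54364 rows of the mouse tables, while Peg13 and Nespas had no row and their levels were not analysed here. The cells came from dorsal skin of FVB mice, an inbred laboratory strain, at 7 to 8 weeks of age, and were sorted for CD49f, integrin alpha-6, after the epidermis had been separated. There are 3 mouse libraries and 1 mouse group with no treatment and no altered allele named in the labels, so no mouse groups can be compared and no test between conditions was possible. The labels do not say whether the libraries came from separate animals, so SDs measure only the spread between these libraries, which may be technical in part. Naked mole-rat libraries of the same study were not used, since the members are mouse identifiers.

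Imprinted genes are expressed mainly or only from the copy inherited from 1 parent. Most lie in clusters, and many clusters hold a long noncoding RNA whose promoter is methylated on the maternal or the paternal copy. Kcnq1ot1 is transcribed from the paternal copy, antisense to the potassium channel gene Kcnq1 within which it lies, and represses neighbouring genes such as Cdkn1c in cis. Airn acts in a like way on Igf2r, Slc22a2 and Slc22a3, the latter genes in placenta. H19 and Meg3, Rian and Mirg are transcribed from the maternal copy, and host small RNAs. Snhg14 is a paternal transcript that hosts small nucleolar RNAs and runs antisense into Ube3a in neurons.

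Totals ran from 52499080 to 53465434 counts per library. Rows with an Ensembl identifier held 10.6% to 11.5% of them and assembled loci without names held the rest, so each level, zeros included, describes only the named row, and reads placed in an unnamed locus are outside it. Library 1 stood apart by its Y-linked counts (Ddx3y, an RNA helicase gene, had 3483, 0 and 0 counts in libraries 1, 2 and 3). RNA of male cells was thus counted in library 1 and not in libraries 2 and 3. Library 1 is therefore not a technical repeat of those, and SDs and differences between libraries include this contrast. None of 11 basal and suprabasal keratinocyte markers, Krt5, Krt14 and Itga6 among them, had a row, so the label of the cells could not be checked by them. Levels are given as CPM, the count per 1000000 counts of a library, and as CPM per kilobase of annotated exon. CPM between genes also reflects their lengths, so levels are compared per kilobase, and places by CPM are given beside those only to show how far length moves them.

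The 5′ end of Kcnq1ot1 is shown because it lies in the region whose methylation sets the imprint of the cluster. GENCODE vM21 annotates Kcnq1ot1 (ENSMUSG00000101609) as 1 unspliced transcript of 93092 bases on the minus strand, chr7:143203458-143296549 (GRCm38). Its first 240 bases, chr7:143296310-143296549, hold 17 CpG dinucleotides, which are in capitals.
Kcnq1ot1: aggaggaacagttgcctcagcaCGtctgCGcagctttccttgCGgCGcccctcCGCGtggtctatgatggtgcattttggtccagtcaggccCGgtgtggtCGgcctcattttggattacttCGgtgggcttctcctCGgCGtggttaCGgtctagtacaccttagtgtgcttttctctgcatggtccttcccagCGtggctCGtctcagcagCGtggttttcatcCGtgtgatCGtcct
The first 1000 bases of the transcript held 68 CpGs and the next 1000 held 31. The ratio of observed to expected CpG was 0.89 and 0.53 in these windows. Over the 91 later windows of 1000 bases the count ran from 0 to 14 with a median of 5, and the ratio did not exceed 0.28. Of 29786 annotated genes with a transcript of at least 1000 bases, 10.5% had at least as many CpGs in the first 1000 bases of a transcript. Among the other genes of the rule the first 1000 bases of the longest transcript held 59 CpGs in Peg13, 50 in Nespas, 26 in H19, 23 in Meg3, 16 in Mirg, 9 in Rian, 7 in Airn and 4 in Snhg14. Where a gene is spliced, these bases may join exons of 1 transcript, which need not start at the promoter. Methylation was not measured in this study's files, so the CpG counts are features of the reference sequence.

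**Figure D1:**
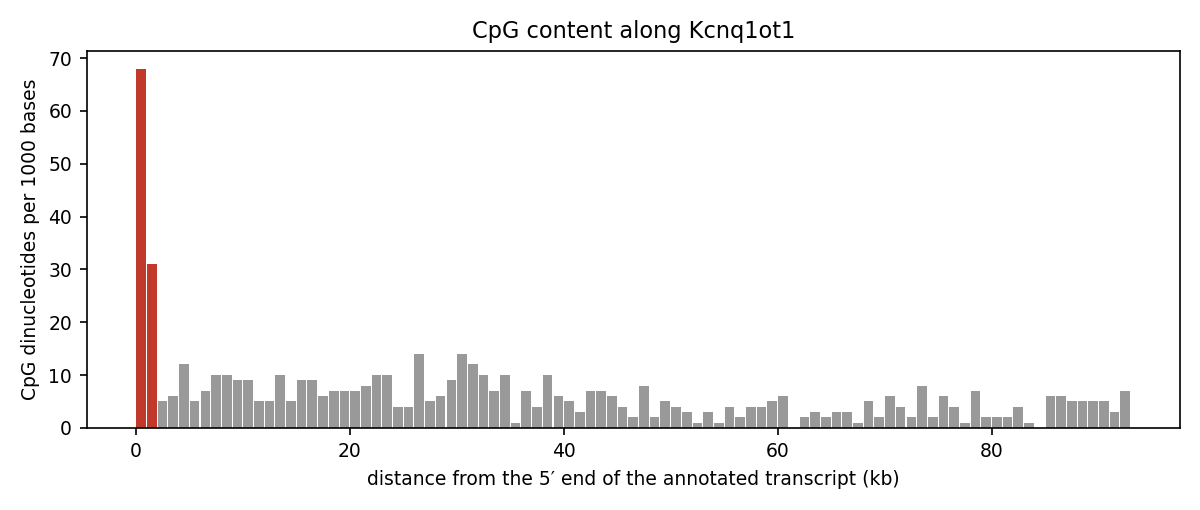
CpG dinucleotides in consecutive windows of 1000 bases (vertical axis) against the distance from the 5′ end of the annotated Kcnq1ot1 transcript in kilobases (horizontal axis). The first windows, in red, hold 68 and 31 CpGs, and no later window, in grey, holds more than 14.

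H19 (ENSMUSG00000000031, minus strand, chr7:142575529-142578143, GRCm38) is a short spliced RNA with 2460 exonic bases. Its best known product is the microRNA precursor Mir675, a hairpin of 84 bases at chr7:142577064-142577147. The hairpin is in capitals below, with 20 flanking bases of H19 on either side, and starts at base 997 of the longest H19 transcript.
H19: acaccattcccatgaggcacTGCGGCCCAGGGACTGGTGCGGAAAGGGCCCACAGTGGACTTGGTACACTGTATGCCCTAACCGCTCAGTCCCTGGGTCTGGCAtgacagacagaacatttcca
Of 7 annotated H19 transcripts 3 hold the hairpin. The row of Mir675 itself had 1 count in each library. The labels name no small RNA library, and the level of the mature microRNA was not measured.

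Kcnq1ot1 was the most counted of the imprinted noncoding RNAs. It had 9131, 9502 and 7472 counts in libraries 1, 2 and 3, or 174, 178 and 141 CPM. Library 3 was the lowest, and its exact 95% Poisson interval, 138 to 144 CPM, did not meet those of library 1 (170.4 to 178 CPM) and library 2 (174 to 181 CPM), which overlapped each other. Such intervals cover counting error only. The mean was 164 ± 20.2 CPM (SD, n = 3), and Kcnq1ot1 held 97.7% of all counts in the 7 rows. The row ranked 9 by CPM among 9965 named genes with a mean of at least 10 counts, the level at which a gene is called measured here.

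Per length, Kcnq1ot1 was of middling level among the measured genes. Genes without a row, Krt5 and Krt14 among them, are outside the orders by CPM and by CPM per kilobase. It had 1.87, 1.91 and 1.52 CPM per kilobase in the 3 libraries, a mean of 1.76 ± 0.217 CPM per kilobase (SD, n = 3). By this level it ranked 4283 among the 9965 measured genes, and 45.5% of measured protein-coding genes lay below it, whose median was 2.11 CPM per kilobase. The counts correspond to 98.1, 102 and 80.3 counts per kilobase of the transcript. Its exonic length was the second longest among the measured long noncoding RNA rows, where the longest had 93147 bases and the median was 1820.

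Among long noncoding RNAs the order by CPM and by CPM per kilobase differed in the same way. Of 8177 rows with a long noncoding biotype 1181 were measured. Kcnq1ot1 was the highest by CPM and took 7.13% of all counts in long noncoding rows, with 7.21%, 7.47% and 6.63% in libraries 1, 2 and 3. The next were Firre, an X-linked nuclear RNA, at 135 ± 8.48 CPM, and Gm37494 at 55.9 ± 1.64 CPM (SD, n = 3 each). Per kilobase Kcnq1ot1 came 109th, at 4.08 times the median of 0.432 CPM per kilobase. The highest per kilobase were Firre at 16.4 ± 1.03, Snhg5 at 11.1 ± 0.424 and Snhg12 at 9.95 ± 0.174 CPM per kilobase, the latter pair being host genes of small nucleolar RNAs. The closest neighbours in that order were Ftx, an RNA of the X-inactivation centre, at 1.78 ± 0.178 and Gm20705 at 1.77 ± 0.267 above it, and E430024I08Rik at 1.73 ± 0.135 and E130102H24Rik at 1.73 ± 0.227 below it (CPM per kilobase, SD, n = 3). None of these 4 differed from Kcnq1ot1 by more than its SD, which follows from their choice as neighbours in this order. Malat1, Neat1 and Xist, abundant nuclear RNAs, had no row, so the order covers only RNAs with a row of their own.

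**Figure D2:**
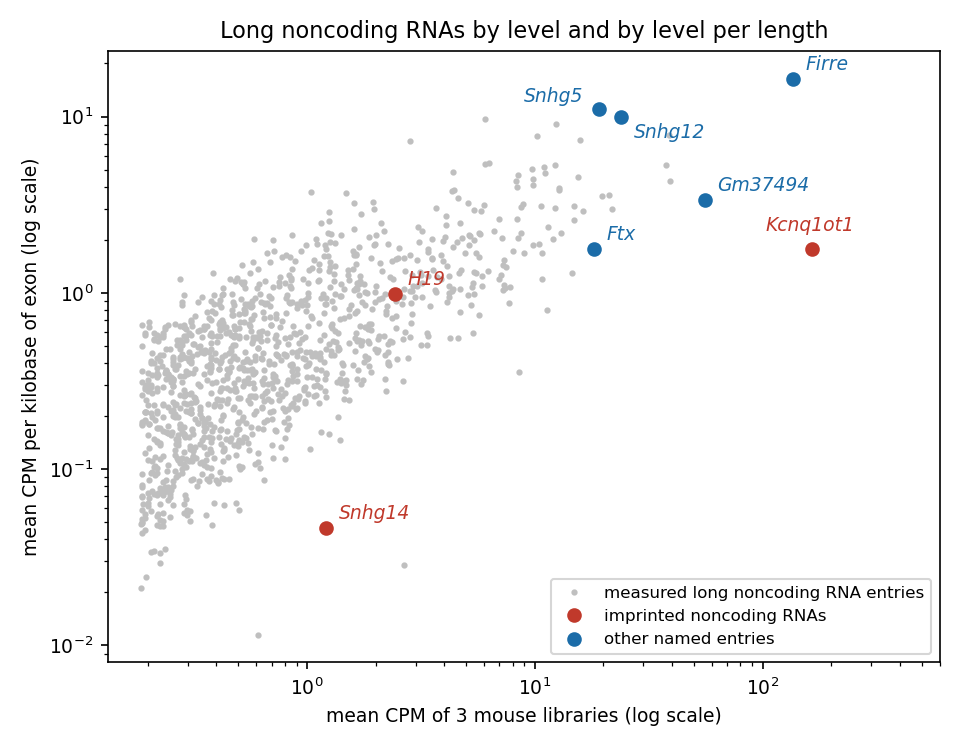
Mean CPM of the 3 mouse libraries (horizontal axis, log scale) against mean CPM per kilobase of exon (vertical axis, log scale) for the 1181 measured long noncoding RNA rows, each a point. Kcnq1ot1 lies farthest right, at 164 CPM, but at 1.76 CPM per kilobase, below Firre at 16.4.

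The other imprinted noncoding RNAs were low or listed at 0. H19 had 159, 173 and 55 counts in libraries 1, 2 and 3, or 1.23, 1.32 and 0.422 CPM per kilobase. Its mean of 0.990 ± 0.493 CPM per kilobase (SD, n = 3) put it in place 255 of the 1181 long noncoding rows. Every library had less H19 than the lowest Kcnq1ot1 value per kilobase, and the mean levels differed by 1.78 times per kilobase against 67.5 times in CPM. H19 per kilobase was 65.9%, 68.9% and 27.9% of Kcnq1ot1 in the same libraries.

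Airn (chr17:12741311-12860136, plus strand) had 9, 14 and 4 counts, or 0.0477, 0.0728 and 0.0210 CPM per kilobase. Its exact 95% Poisson intervals, 0.0784 to 0.325, 0.143 to 0.439 and 0.0206 to 0.193 CPM, all overlapped. Overlap of such intervals does not decide whether the libraries differ, and a difference was not tested. Only 3.03% of the 118826 bases of the Airn locus are annotated as exon, and the RNA is known to be largely unspliced, so its row need not hold all of its reads. Snhg14 (chr7:59307924-59975759, minus strand) had 45, 75 and 73 counts, or 0.0329, 0.0538 and 0.0528 CPM per kilobase over 26093 exonic bases. That put it in place 1170 of the 1181 measured long noncoding rows. Airn and Snhg14, at 0.0472 ± 0.0259 and 0.0465 ± 0.0118 CPM per kilobase (SD, n = 3), did not differ beyond their spread, and their order changed with the length used. Per kilobase of the longest transcript they had 0.123 and 0.177 CPM, and per kilobase of the whole gene span 0.0014 and 0.0018 CPM. Both lay below the lowest H19 value in all libraries.

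Meg3 (chr12:109541001-109571726), Rian (chr12:109603940-109661716) and Mirg (chr12:109729764-109749460), all on the plus strand, had 0 counts in each library. A count of 0 allows up to 3 counts, or 0.0571 CPM in the smallest library. Per kilobase that limit is 0.00316 for Meg3, 0.00313 for Rian and 0.00784 for Mirg. The lowest Kcnq1ot1 value, 1.52 CPM per kilobase, was therefore at least 479-fold higher than the limit for Meg3, at least 483-fold higher than that for Rian and at least 193-fold higher than that for Mirg.

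**Figure D3:**
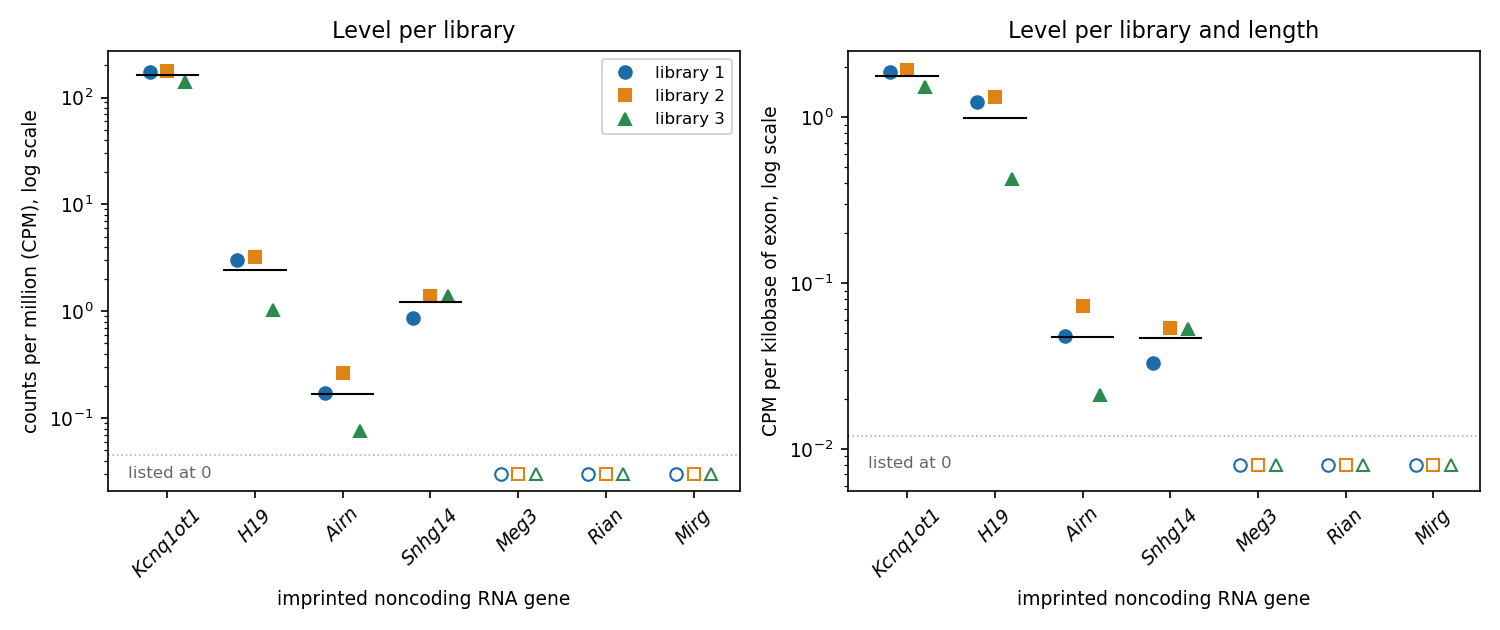
Level of the 7 imprinted noncoding RNAs with a row in each mouse library, as CPM (left, log scale) and as CPM per kilobase of exon (right, log scale). Symbols are libraries, lines are means of 3 libraries, and open symbols under the dotted line are rows listed at 0. Kcnq1ot1 is the highest on both scales, at 164 CPM and 1.76 CPM per kilobase, and Meg3, Rian and Mirg are at 0 in each library.

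The zeros of Meg3, Rian and Mirg were shared by most rows of their domain, and zeros were common over all rows. Of 42675 Ensembl rows 60.9% had 0 counts in each library, as did 69.2% of the long noncoding, 71.6% of the microRNA and 83.2% of the small nucleolar RNA rows. Between Dlk1, which encodes a Notch-family ligand, and Dio3, a thyroid hormone deiodinase gene (chr12:109452823-110281097, GRCm38), 115 of 118 annotated genes had a row and 114 of these had 0 counts in each library. The other, Gm9661, had 0, 0 and 3 counts. In the window from Ndn to Ube3a, which holds Snhg14, 246 of 262 rows were at 0. The share was lower in the window from Igf2 to Nap1l4, which holds Kcnq1ot1, with 19 of 31 rows at 0. From Igf2r to Slc22a3 it was 2 of 5. In the Meg3 domain, Dlk1, Dio3 and the retrotransposon-derived gene Rtl1 were among the rows at 0. So were the 21 microRNA and 13 small nucleolar RNA rows that lie within Meg3, Rian and Mirg. The 208 small nucleolar RNA rows within Snhg14 also had 0 counts, and they are part of the 246 between Ndn and Ube3a.

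Genes that overlap a member were examined because the sources used here do not give the counting program or its use of strand, so reads of a gene and its antisense partner cannot be told apart. Kcnq1, the potassium channel gene that spans Kcnq1ot1, had 0 counts in each library. Exons of Kcnq1 and Kcnq1ot1 share 121 bases, which at the mean density of Kcnq1ot1 would hold 11.9, 12.4 and 9.71 counts. Ube3a, a ubiquitin ligase gene, had 5618, 5974 and 5347 counts and shares 1803 exonic bases with Snhg14. At the mean density of Ube3a those bases would hold 491, 522 and 467 counts, whereas all of Snhg14 had 45 to 75. Which of the genes the reads in the shared bases came from was not tested, and the value of Snhg14 is uncertain for that reason. Gm38393, a protein-coding gene that shares 27 exonic bases with Snhg14, had 0, 0 and 5 counts. Igf2r, the receptor gene that Airn overlaps, had 2534, 2220 and 1986 counts and shares 0 exonic bases with it. Mas1, a receptor gene that also overlaps Airn, had 0 counts in each library. Of all stretches of 50 bases in the transcripts of a gene, 1.71% in Kcnq1ot1, 2.96% in H19, 0% in Airn and 9.40% in Snhg14 also occurred in a transcript of another gene on either strand. Copies elsewhere in the genome were not searched.

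Protein-coding genes listed by imprinted domain or chromosome ranged from 0 to levels above those of the noncoding RNAs. Of 38 listed genes 30 had a row, 14 were measured and 10 were at 0 in each library. In the Kcnq1ot1 cluster, Tssc4, a spliceosome assembly factor, had 7.88 ± 0.257 CPM per kilobase and the transporter gene Slc22a18 had 3.13 ± 0.303 (SD, n = 3 each). Cdkn1c, a cyclin-dependent kinase inhibitor that Kcnq1ot1 represses on the paternal copy, had 45, 44 and 25 counts, or 0.352 ± 0.105 CPM per kilobase. Phlda2, a placental growth regulator of the cluster, had 12, 7 and 0 counts. Igf2, the growth factor gene that shares an imprinting control region with H19, had 0, 38 and 16 counts. H19 had 159, 173 and 55 counts, so both rows were highest in library 2, while Igf2 was lowest in library 1 and H19 in library 3.

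In the Airn domain, Igf2r had 4.56 ± 0.585 CPM per kilobase and the organic cation transporter gene Slc22a3 had 12, 12 and 11 counts. Slc22a2, another transporter of that domain, had 2, 0 and 0 counts. Near Snhg14, Ube3a had 5.17 ± 0.262 CPM per kilobase and Atp10a, a phospholipid flippase, 7.17 ± 0.766. Snrpn, which encodes a splicing protein, had 17, 24 and 16 counts and Mkrn3, a ubiquitin ligase gene, 22, 78 and 40. Mkrn3 was highest in library 2 and lowest in library 1. On chromosome 2, where Nespas lies, imprinted genes outside the Nespas domain were listed with Gnas. Of these, Blcap had 7.04 ± 0.241, H13, a signal peptide peptidase, 5.47 ± 0.264, the retrogene Mcts2 5.46 ± 0.250 and Nnat 1.92 ± 0.273 CPM per kilobase (SD, n = 3 each). Gnas, which overlaps Nespas, and Trappc9, in which Peg13 lies, had no row.

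Between the mouse libraries, Kcnq1ot1 varied less than H19. Each library was set against the mean of the other 2 on the log2 scale, with 0.5 added to each count, and differences of at least 1.5-fold were counted. Kcnq1ot1 differed by 0.14, 0.18 and −0.32 in libraries 1, 2 and 3 and passed 1.5-fold in none. The median over all measured genes in library 3 was itself −0.098. With other scaling factors the Kcnq1ot1 difference there was −0.25. Its coefficient of variation was 12.3%, where counting error alone gives 1.07%. The median over 1985 named genes with a mean of at least 1000 counts was 7.66%, and 79.8% of them varied less than Kcnq1ot1.

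Library 3 held the lowest H19 level, with Poisson intervals of 0.782 to 1.35 CPM against 2.58 to 3.54 and 2.77 to 3.76 CPM. The difference was −1.58 on the log2 scale, or 3.00-fold. It was the single one of the 3 measured members at least 1.5-fold lower there, a size that 15.4% of all 9965 measured genes reached in that library. Among 2063 genes with a mean of 50 to 200 counts the share was 17.6%, and 30 of them (1.45%) had a lower value than H19 in library 3. In libraries 1 and 2 H19 passed 1.5-fold upward, with 0.72 and 0.86, where 13.2% and 11.8% of all measured genes did, and 14.4% and 11.3% of those with a mean of 50 to 200 counts. No measured member was at least 1.5-fold lower in library 2 or higher in library 3, as 6.77% and 8.09% of all measured genes were, and 4.65% and 6.54% of those with 50 to 200 counts. The upward values of H19 in libraries 1 and 2 rested on library 3: without it they were −0.095 and 0.095. A difference of 1 library from the others has no replicate check, and fewer cells of a type and less RNA per cell cannot be told apart in such bulk samples.

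Markers of other cell types also differed between the libraries. Of 30 such markers in 6 lists 23 had a row. At 0 in each library were 13 of these, beside 60.9% of all Ensembl rows. Among the 13 were the endothelial genes Cdh5, Kdr and Emcn, the fibroblast genes Lum and Pdgfrb and the melanocyte genes Tyr and Mlana. Also at 0 were the muscle genes Myh4 and Des and the 4 listed Merkel cell genes, Krt20 among them. Other endothelial, melanocyte, fibroblast and muscle markers had counts. In libraries 1, 2 and 3 Pecam1 had 10, 14 and 11 and Tek 4, 0 and 0. Dct had 15, 13 and 17, Tyrp1 13, 0 and 0, Dcn 26, 31 and 29 and Pdgfra 0, 5 and 6. The muscle gene Ckm had 4, 23 and 21, its lowest in library 1. The summed level of the 23 rows was 1.94, 2.92 and 4.30 CPM in libraries 1, 2 and 3. The leukocyte markers made up 0.571, 1.31 and 2.72 CPM of it, with 59 counts of Lyz2, lysozyme, in library 3 and 0 in the others. Dcn, a fibroblast marker, is also in the list of imprinted genes. The part of these markers in the value of H19 was not tested.

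Snhg14 was lowest in library 1, with a difference of −0.69, or 1.62-fold. In that library 9.19% of all measured genes and 9.5% of those with 50 to 200 counts were at least 1.5-fold lower. The Poisson interval of library 1, 0.625 to 1.15 CPM, met that of library 2, 1.10 to 1.76 CPM, and the coefficient of variation over the libraries was 25.4%, where counting error alone gives 12.5%. Library 1 is also the library with Y-linked counts, and the part of this in the value of Snhg14 was not tested.

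Of the imprinted protein-coding genes, a few differed between the libraries by at least 1.5-fold. Of 67 listed genes, in these domains and elsewhere, 53 had a row and 25 were measured. In library 3, 3 of the 25 were at least 1.5-fold lower, against 15.4% of all measured genes: Cdkn1c at −0.82, Nap1l5 at −0.65 and Slc38a4, an amino acid transporter, at −1.90. Igf2 had 0, 0.711 and 0.302 CPM, and its value in library 3, below that of library 2, counts as 1.5-fold higher on the log2 scale only through the 0 in library 1. Slc38a4 had 107, 144 and 33 counts, its lowest in the same library as H19. The median of the 25 in library 3 was −0.053, against −0.098 over all measured genes. In library 1, 3 of 25 were lower (Igf2, Mkrn3 and Peg3) and 2 higher (Nap1l5 and Slc38a4), where 9.19% and 13.2% of all measured genes were. In library 2 none of the 25 was lower and 4 were higher (Igf2, Mkrn3, Peg3 and Slc38a4), beside 6.77% and 11.8% of all measured genes. With 25 genes these counts lie near the background.

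**Figure D4:**
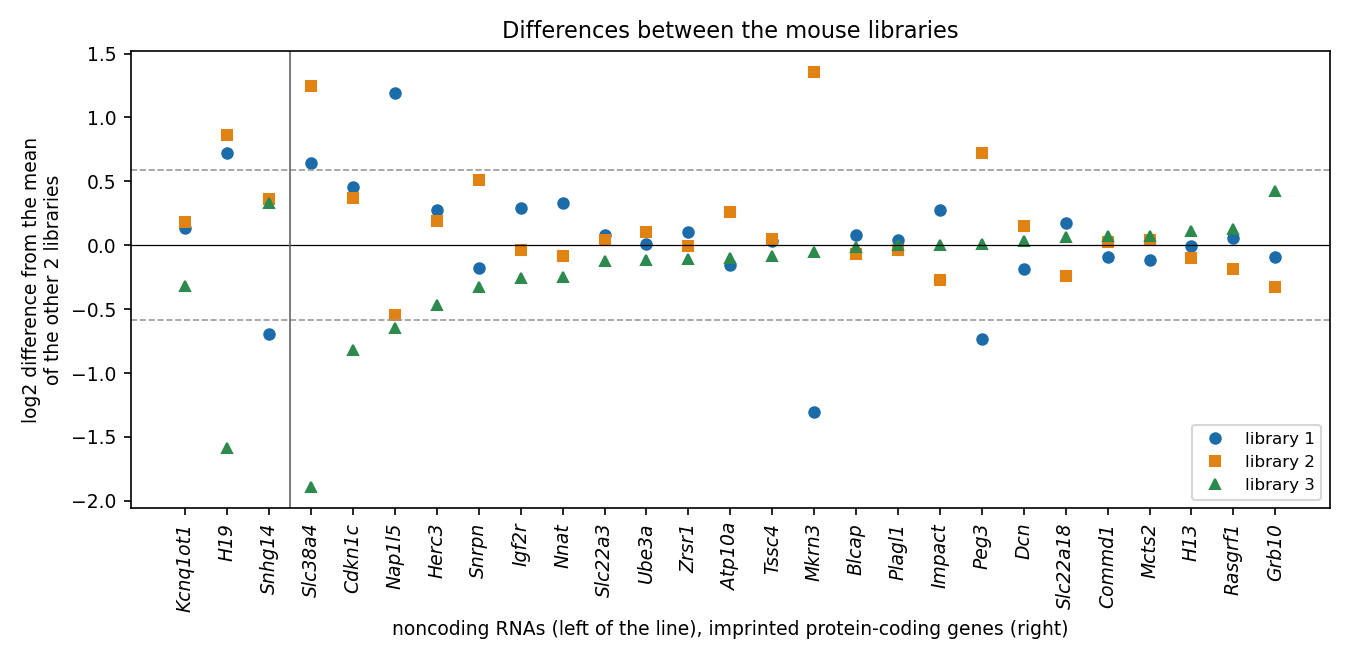
Log2 difference of each mouse library from the mean of the other 2 (vertical axis) for the 3 measured noncoding RNAs and 24 measured imprinted protein-coding genes (horizontal axis). Dashed lines mark 1.5-fold, and Igf2, at 0 counts in library 1, is left out. H19 reaches −1.58 in library 3, while Kcnq1ot1 stays between −0.32 and 0.18.

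The genes whose pattern over the 3 libraries lay nearest to Kcnq1ot1 were Tmem106c, Trim35, Carmil3, Pced1b and Pacs1, all protein-coding. Likeness was the Euclidean distance between log2 levels, each gene centred on its own mean over the 3 libraries. Distances ran from 0.0050 for Tmem106c to 0.010 for Pacs1. Tmem106c had 13.4, 13.8 and 10.9 CPM and Trim35 19.4, 19.9 and 15.7 CPM in libraries 1, 2 and 3, against 174, 178 and 141 for Kcnq1ot1. With 3 libraries such likeness is common: 571 of 9964 measured genes (5.73%) lay within a distance of 0.1.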

How the data were processed

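RNA was measured in 3 mouse libraries of sorted keratinocytes, prepared with ribosomal RNA depletion and a strand-specific kit per the labels' protocols. The authors deposited 1 table of raw counts per library, whole numbers for each Ensembl gene or assembled locus. TopHat2, Bowtie2, cutadapt, FastQC and the build mm10 are listed in the submitters' processing notes. Neither these nor the labels name a counting program or strand setting. In library 1 fewer rows held a count of 1 than of 3 (641 against 781), and the reason was not tested.

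Identifiers were joined to GENCODE vM21 (GRCm38, the mm10 assembly). Of 42675 Ensembl rows 42457 had a symbol. CPM used all counts of a library, exon length was the union of annotated exons, and CpGs and shared stretches of 50 bases came from the GENCODE transcript sequences. Genes with a mean of at least 10 counts counted as measured. TMM factors came from edgeR 4.0.16 in R 4.3.3, and the rest was computed in Python 3.11.15 with pandas 2.3.3, numpy 2.4.6 and scipy 1.17.1 and drawn with matplotlib 3.10.9. The difference of a library from the others was checked on simulated counts. Alternatives were other totals, scaling factors, lengths, minimum counts, added counts and leaving out each library.

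The members and lists were chosen with earlier results of these data known. Named genes were all members with a row, overlapping protein-coding genes, measured genes of the domain lists, 5 genes alike in pattern, long noncoding RNAs at the top of and beside Kcnq1ot1 in the order, and up to 4 measured genes of the other lists by CPM per kilobase. Genes of the domain lists below 10 counts, Gm9661, genes of the wider imprinted list past 1.5-fold, regulators under the minimum or at 0, genes without a row, the marker genes and Ddx3y were named after their values were seen.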

Additional observations from a re-analysis of the deposited data

How the results depend on the processing

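Of 95 alternative values for 16 results, 82 kept their side of 1.5-fold, or moved by at most 1 SD between libraries or, for counts and places, by at most 1.5 times. Of 45 alternative differences between libraries 3 changed sign, all on leaving out a library. Computed over Ensembl rows only, Kcnq1ot1 had 1465 CPM and 15.7 CPM per kilobase, since by construction the total is then 10.6% to 11.5% of a library. Leaving out a library gave −0.031 to 0.30 for Kcnq1ot1 in library 1, −0.095 to 1.54 for H19 in library 1, 0.095 to 1.63 for H19 in library 2, 0.025 to 0.70 for Snhg14 in library 2 and −0.025 to 0.68 for Snhg14 in library 3. For H19 in library 3 it gave −1.63 to −1.54, and for the place of Kcnq1ot1 101 to 115. Without library 3 Airn was also measured, giving 4 members. With the longest transcript as length Kcnq1ot1 came 133rd of 1181, and with TEC rows, unverified genes added to the order after seeing the data, 158th of 1848. The low depth of Airn limits it to 9 counts a library on average. No paired analysis was possible because the libraries that share numbers belong to different species, which were not compared.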

Other observations

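Genes that act in imprinting were partly represented. Of 24 listed regulators 14 had a row and 9 were measured, and 0 of the 9 were at least 1.5-fold lower or higher in any library, where 6.77% to 15.4% of all measured genes were in each direction. The highest per kilobase were Suz12 and Ezh2, subunits of the Polycomb complex that methylates histone H3, at 9.74 ± 1.10 and 8.29 ± 0.687 CPM per kilobase, and Nfya and Nfyb, subunits of a CCAAT-binding factor, at 7.01 ± 0.444 and 5.90 ± 0.585 (SD, n = 3 each). Zfp57, a zinc finger protein that maintains methylation at imprinting control regions, had 7, 10 and 0 counts, and the germline genes Dnmt3l and Ctcfl had 0. Dnmt1 and Ehmt2, which encode a DNA and a histone methyltransferase, had no row.

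Of 29 listed imprinted protein-coding genes outside the lists by domain or chromosome, 23 had a row, 11 were measured and 7 were at 0 in each library. Per kilobase the highest were Impact at 3.93 ± 0.498, Plagl1, a zinc finger transcription factor, at 3.64 ± 0.062, Commd1 at 3.28 ± 0.126 and Zrsr1 at 3.20 ± 0.156 CPM per kilobase (SD, n = 3 each). Peg3, another zinc finger gene, had 204, 408 and 290 counts.

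Of 21 other long noncoding RNAs chosen by name, 10 had a row and 9 were measured, and Miat was at 0. Host genes of small nucleolar RNAs were the highest per kilobase. After Snhg5 and Snhg12 came Snhg15 at 9.11 ± 0.377 and Snhg6 at 5.48 ± 0.293 CPM per kilobase (SD, n = 3 each). Only Pvt1 passed 1.5-fold in a library, with 50, 46 and 31 counts in libraries 1, 2 and 3, a difference of −0.62 in library 3, where 15.4% of all measured genes were at least 1.5-fold lower.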
